A study of Mus musculus with 48 samples.

Results

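The report describes 7 genes of fibroblast growth factor (FGF) signalling in mouse skin, the ligands Fgf5, Fgf7, Fgf10, Fgf18 and Fgf22 and the receptors Fgfr1 and Fgfr2, out of 46983 genes in each table of expression values. They were chosen by name, as FGF ligands and receptors with a known part in the hair cycle, and all 7 were found in both tables. The skin table held 43 RNA-seq libraries of whole skin from C57BL/6 mice, from 3 body domains (chin, ventral and dorsal) at 6 labelled stages of the hair cycle, which made 18 groups of 2 or 3 libraries. The stages were competent telogen (rest, open to activation), early, mid and late anagen (growth), catagen (regression) and refractory telogen (rest, closed to activation). The authors took competent telogen from the first telogen and refractory telogen from the early second telogen. The step from refractory to competent telogen given below therefore closes the cycle. It sets the earlier telogen against the later, and stage and cycle cannot be told apart in it. The ear table held 3 libraries of ear cartilage/muscle complex, 2 of ear skin in telogen and 2 of dorsal competent telogen skin. The last 2 were the same libraries as in the skin table, with 0 values that differed. All mice were untreated as far as the labels go, and the labels give neither their age nor whether replicates came from separate animals, so p-values measure the spread between these libraries only. Values are FPKM (fragments per kilobase of transcript, scaled to the mapped fragments of the library), a level per length that can be set side by side between genes. The tissue was bulk skin, in which fewer cells of a type and less RNA per cell cannot be told apart.

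FGF ligands are secreted proteins that bind receptor tyrosine kinases with heparan sulphate as a partner, and the receptors signal through the MAP kinase pathway to induce ETS factors such as Etv4 and Etv5 and feedback inhibitors such as Spry2. In the hair follicle, Fgf7 and Fgf10 are made mainly by the dermal papilla, the mesenchymal cluster at the follicle base, and act on the epithelial splice form of Fgfr2 in the hair germ and matrix. Fgf5 is made in the outer root sheath late in growth and brings anagen to its end, so that mice without it have long hair, while Fgf18 is made by the inner bulge layer in rest and holds the stem cells quiescent. Fgf22 is an epithelial ligand, and Fgfr1 is the main receptor of the mesenchyme.

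Some libraries stood apart from their labels, and this touches several results. Over all genes, the chin late anagen and dorsal competent telogen libraries were as close to each other as replicates are, with distances of 0.425 to 0.454 in 4 pairs on the log2 scale against 0.398 to 0.695 in 32 pairs of replicates and at least 0.489 between any other groups. The position genes Hoxb6 and Hoxb7 follow the body axis. Hoxb7 was at 7.25 to 8.41 FPKM in the chin late anagen libraries, at 0 to 0.77 in the other 12 chin libraries and at 3.06 to 18.2 in the 29 ventral and dorsal ones. Hoxb6 was at 6.16 to 7.13 in chin late anagen and at 0 to 1.42 in the rest of the chin. Mki67, a gene of dividing cells, had a mean of 13.4 FPKM in chin competent telogen and 11.6 in ventral competent telogen, near the 14.5 of chin early anagen and 13.2 of dorsal early anagen, whereas it was at 1.40 in ventral early anagen and at 1.89 to 2.01 in the refractory telogen groups. Krt31, a hair shaft keratin of anagen, was at 1062 in dorsal competent telogen against 110 in dorsal early anagen. For the 7 genes, the tests over the stages, among the domains and of their interaction are given with and without these groups. So are their ear comparisons with dorsal skin and their correlations with each other and with the dermal papilla, hair matrix and stem cell lists. The most similar genes and all values of other pathway genes are given with all groups only. Dorsal catagen, a label of regression, had a higher Mki67 mean than any other group, and the tests were not repeated without it. A difference between single groups that uses chin late anagen, a competent telogen group, ventral early anagen or dorsal catagen cannot be had without that group, and rests on its label. One sample tag places 1 ventral catagen library in rostral ear skin, against its title; leaving it out changed no call reported here.

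**Figure D1:**
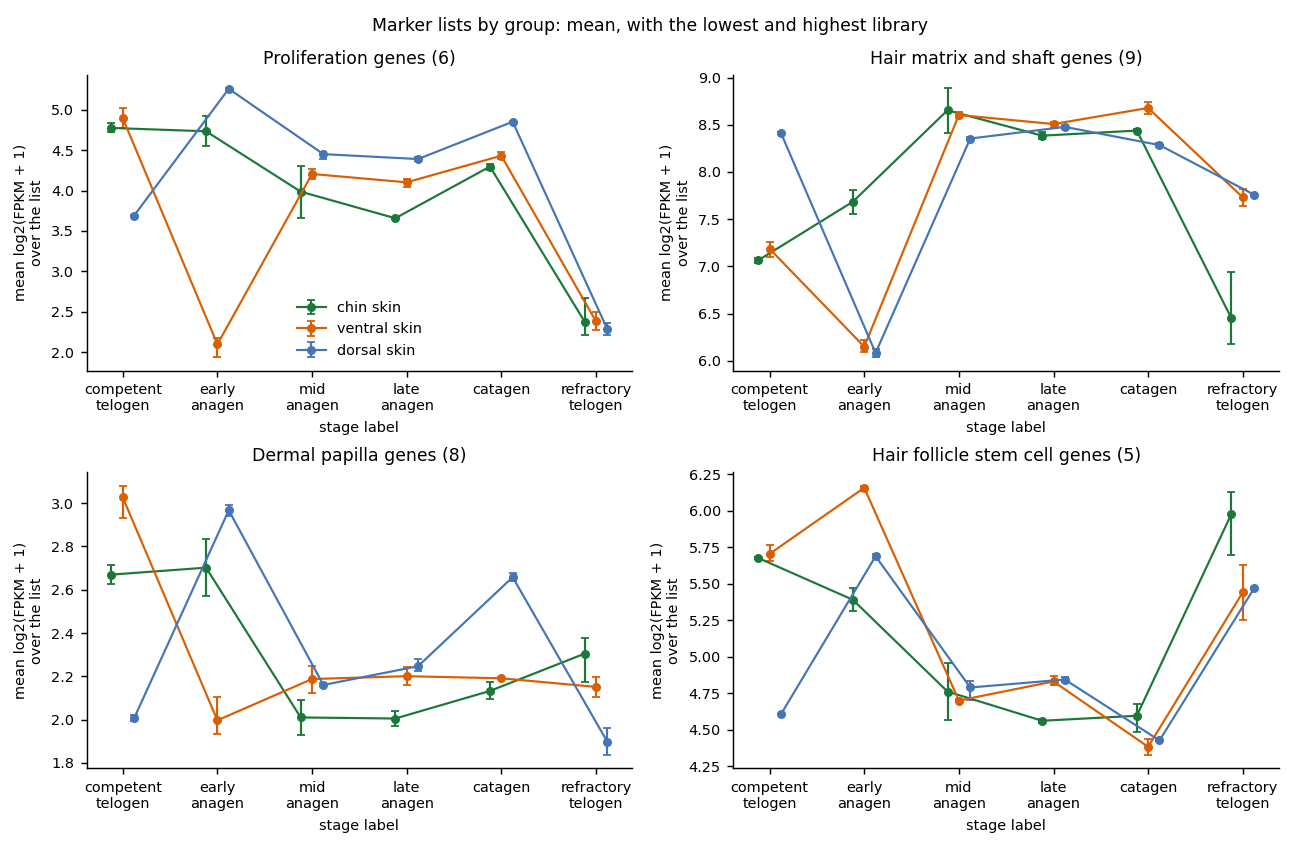
Mean log2(FPKM + 1) over the genes of 4 marker lists by stage label, with 1 panel per list and 1 colour per domain, points for group means and bars from the lowest to the highest library. Chin and ventral competent telogen were high in the proliferation and dermal papilla lists, ventral early anagen was low in the proliferation list, and dorsal competent telogen was as high in the hair matrix and shaft list as the mid and late anagen groups.

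The 7 genes lie on 7 chromosomes. By RefSeq positions on GRCm38.p6, the build equivalent to the mm10 of the authors, they are Fgf5 at chr5:98254184-98277033 on the plus strand, Fgf7 at chr2:126034658-126091185 (plus), Fgf10 at chr13:118714699-118792573 (plus), Fgf18 at chr11:33116970-33147400 (minus), Fgf22 at chr10:79755051-79757795 (plus), Fgfr1 at chr8:25518759-25575718 (plus) and Fgfr2 at chr7:130162451-130266808 (minus). Fgf22 overlaps Rnf126 on the other strand, and as strand was not kept in these libraries, reads in the overlap could not be split between them from strand. Rnf126 ranged from 2.96 to 35.8 FPKM and had a Pearson r of 0.23 with Fgf22 over the group means. Fgf7, Fgf10 and Fgfr1 overlap Fam227b, Gm16263 and Gm16159 in the same way. The RefSeq promoter table had an entry for 6 of the 7 genes. The promoters of 4 ligands follow, Fgf7 and Fgf10 as the pair whose levels moved together and Fgf5 and Fgf22 beside them, 250 bases up to the transcription start (192 for Fgf22), 5′ to 3′ on the strand of the gene. Capitals mark the GC box in its opposite-strand form (CCGCCC), the only motif with a match among those searched on both strands, which were the TATA box (TATAAA), the GC box (GGGCGG), an E-box (CACGTG), an AP-1 site (TGANTCA) and the core of the TCF/LEF site (CTTTGA).
Fgf7 (chr2:126034408-126034657): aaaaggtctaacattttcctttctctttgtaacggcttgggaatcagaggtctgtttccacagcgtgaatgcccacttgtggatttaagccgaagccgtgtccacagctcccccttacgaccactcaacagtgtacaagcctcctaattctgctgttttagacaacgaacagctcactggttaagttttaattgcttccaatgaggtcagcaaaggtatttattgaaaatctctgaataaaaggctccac
Fgf10 (chr13:118714449-118714698): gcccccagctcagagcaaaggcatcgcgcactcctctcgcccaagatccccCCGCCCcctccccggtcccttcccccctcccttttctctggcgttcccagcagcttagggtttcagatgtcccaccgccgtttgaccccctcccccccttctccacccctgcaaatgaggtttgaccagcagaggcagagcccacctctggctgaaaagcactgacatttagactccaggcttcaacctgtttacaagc
Fgf5 (chr5:98253934-98254183): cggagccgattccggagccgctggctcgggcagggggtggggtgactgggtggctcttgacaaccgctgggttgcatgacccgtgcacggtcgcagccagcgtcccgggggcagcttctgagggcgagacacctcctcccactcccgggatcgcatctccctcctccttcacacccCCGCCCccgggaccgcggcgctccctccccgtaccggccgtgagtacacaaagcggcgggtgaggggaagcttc
Fgf22 (chr10:79754859-79755050): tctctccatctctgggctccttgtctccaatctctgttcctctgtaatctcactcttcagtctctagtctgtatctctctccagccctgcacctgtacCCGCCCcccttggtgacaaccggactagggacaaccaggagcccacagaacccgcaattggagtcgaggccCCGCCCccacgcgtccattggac
Of 32851 mouse promoters of this length, 32.7% held the GC box, 12.4% the TATA box, 6.02% the E-box, 6.75% the AP-1 site and 13.8% the TCF/LEF core. Fgf7 and Fgf10, whose levels moved together over the groups, shared none of these motifs, since Fgf10 and Fgf5 held 1 GC box each, Fgf22 held 2 and the Fgf7 window held no match.

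Fgf5, the ligand that ends growth, was low in most telogen and early anagen groups and high from mid anagen to catagen. In chin skin, Fgf5 was at 1.00 and 1.10 FPKM in competent telogen, 0.78 and 1.88 in early anagen, 2.42 and 6.37 in mid anagen, 8.69 and 10.5 in late anagen, 9.15, 9.84 and 10.2 in catagen and 1.13, 1.15 and 2.86 in refractory telogen. In ventral skin, Fgf5 was at 1.42, 1.71 and 1.93 FPKM in competent telogen, 0.57, 0.57 and 0.80 in early anagen, 10.9 and 11.1 in mid anagen, 4.84, 5.24 and 5.85 in late anagen, 8.10 and 8.54 in catagen and 1.60 and 1.72 in refractory telogen. In dorsal skin, Fgf5 was at 8.85 and 10.4 FPKM in competent telogen, 1.32 and 1.39 in early anagen, 5.38, 5.56 and 5.85 in mid anagen, 4.32, 4.80 and 5.54 in late anagen, 4.43 and 4.51 in catagen and 2.07 and 2.77 in refractory telogen. In each domain every mid anagen library was above both or all early anagen libraries, and dorsal competent telogen was the one telogen group as high as catagen. Group means ran 17.0-fold, from 0.647 in ventral early anagen to 11 in ventral mid anagen, and libraries of 12 of the 17 neighbouring pairs in the order of groups overlapped. From early to mid anagen, Fgf5 rose by 2.87 ± 0.22 (log2 difference ± SE of log2(FPKM + 1); adjusted p = 2.9e-11, limma with Benjamini-Hochberg adjustment over all genes tested, as for every adjusted p here) in ventral skin and by 1.49 ± 0.22 (adjusted p = 5.2e-06) in dorsal skin. In chin skin it rose by 1.15 ± 0.25 (adjusted p = 0.0016), a call that was lost without chin early anagen replicate 1 (0.80, adjusted p = 0.0694) or chin mid anagen replicate 1 (0.60, adjusted p = 0.104). From catagen to refractory telogen it fell by 2.04 ± 0.20 in chin skin (adjusted p = 1.5e-09), by 1.81 ± 0.25 in ventral skin (1.4e-06) and by 0.69 ± 0.25 in dorsal skin (0.024). The dorsal fall lost its call without either dorsal catagen library or without dorsal refractory telogen replicate 1, with p between 0.0788 and 0.183. At catagen, dorsal skin was lower than chin skin by 0.97 ± 0.22 (difference of -0.97, adjusted p = 0.00079).

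**Figure D2:**
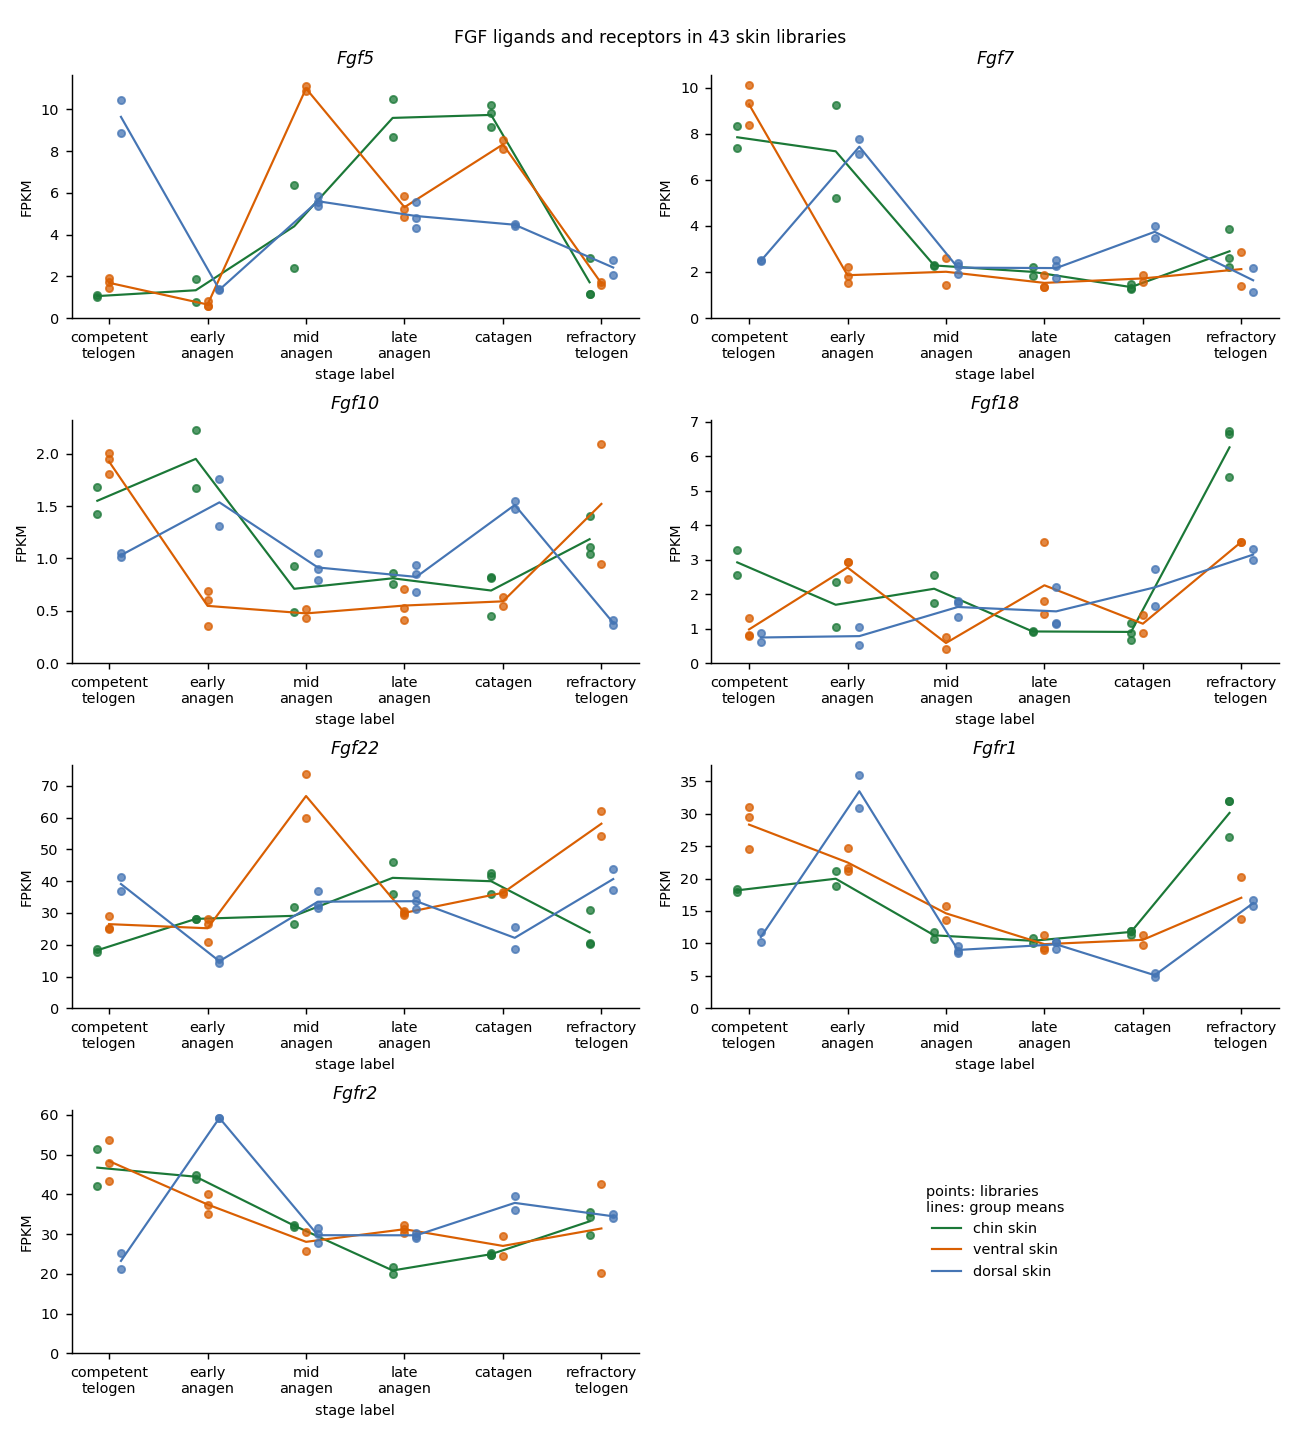
FPKM of the 7 genes in each of the 43 skin libraries, on linear axes from 0, by stage in cycle order, with 1 panel per gene, 1 colour per domain, a point per library and lines through the group means. Fgf5 peaks between mid anagen and catagen in chin and ventral skin and in competent telogen in dorsal skin. Fgf18 peaks in refractory telogen, and Fgf7 in competent telogen of chin and ventral skin and early anagen of chin and dorsal skin.

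Fgf18, the ligand of resting follicles, was highest in refractory telogen in every domain. In chin skin, Fgf18 was at 2.56 and 3.29 FPKM in competent telogen, 1.04 and 2.35 in early anagen, 1.76 and 2.56 in mid anagen, 0.90 and 0.94 in late anagen, 0.66, 0.88 and 1.18 in catagen and 5.40, 6.64 and 6.75 in refractory telogen. In ventral skin, Fgf18 was at 0.80, 0.83 and 1.31 FPKM in competent telogen, 2.45, 2.94 and 2.94 in early anagen, 0.42 and 0.75 in mid anagen, 1.44, 1.81 and 3.53 in late anagen, 0.88 and 1.41 in catagen and 3.51 and 3.53 in refractory telogen. In dorsal skin, Fgf18 was at 0.61 and 0.88 FPKM in competent telogen, 0.53 and 1.04 in early anagen, 1.33, 1.76 and 1.80 in mid anagen, 1.13, 1.17 and 2.21 in late anagen, 1.66 and 2.74 in catagen and 2.98 and 3.32 in refractory telogen. The 3 chin refractory telogen libraries lay above all other skin libraries, and the refractory telogen libraries of each domain lay above the other libraries of that domain, except that 1 ventral late anagen library reached the ventral refractory level. Group means ran 10.7-fold, from 0.585 in ventral mid anagen to 6.26 in chin refractory telogen, and 15 of 17 neighbours in the order overlapped. From catagen to refractory telogen it rose by 1.93 ± 0.20 in chin skin (adjusted p = 5.8e-09) and by 1.09 ± 0.25 in ventral skin (0.0012), while the dorsal difference of 0.39 did not pass (0.22). From refractory to competent telogen, Fgf18 fell by 1.25 ± 0.25 in dorsal skin (adjusted p = 0.00043), by 1.2 ± 0.23 in ventral skin (8.9e-05) and by 0.89 ± 0.23 in chin skin (0.0027). The chin fall was at 0.0518 (difference of -0.75) without chin competent telogen replicate 2. Among domains at refractory telogen, ventral skin was lower than chin skin by 0.68 ± 0.23 (difference of -0.68, adjusted p = 0.024). That call was lost without either ventral library or chin replicates 1 or 3, at p of 0.066 to 0.104, and under median-of-ratios scaling (0.137) or quantile normalization (0.272). Chin refractory telogen was also the group with the most skeletal muscle RNA, at 10777 to 16476 summed FPKM over 8 muscle genes against 214 to 6166 in the other 17 groups, and the part of this in the Fgf18 level was not tested.

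Fgf7, the keratinocyte growth factor of the dermal papilla, was high in 4 groups and low in the other 14. In chin skin, Fgf7 was at 7.38 and 8.33 FPKM in competent telogen, 5.22 and 9.27 in early anagen, 2.25 and 2.32 in mid anagen, 1.81 and 2.20 in late anagen, 1.24, 1.32 and 1.47 in catagen and 2.22, 2.62 and 3.86 in refractory telogen. In ventral skin, Fgf7 was at 8.38, 9.34 and 10.1 FPKM in competent telogen, 1.54, 1.83 and 2.21 in early anagen, 1.43 and 2.59 in mid anagen, 1.35, 1.36 and 1.87 in late anagen, 1.55 and 1.89 in catagen and 1.38 and 2.87 in refractory telogen. In dorsal skin, Fgf7 was at 2.46 and 2.51 FPKM in competent telogen, 7.11 and 7.78 in early anagen, 1.91, 2.27 and 2.39 in mid anagen, 1.73, 2.27 and 2.51 in late anagen, 3.48 and 4.01 in catagen and 1.11 and 2.17 in refractory telogen. The high groups were competent telogen and early anagen of the chin, ventral competent telogen and dorsal early anagen, all with libraries above 5 FPKM, and no library of another group was above 4.01. Group means ran 6.91-fold, from 1.34 in chin catagen to 9.28 in ventral competent telogen, and 14 of 17 neighbours overlapped. From refractory to competent telogen it rose by 1.76 ± 0.21 in ventral skin (adjusted p = 7.4e-08) and by 1.2 ± 0.21 in chin skin (2.9e-05), and the dorsal difference of 0.43 did not pass (0.19). From early to mid anagen it fell by 1.41 ± 0.21 in dorsal skin (3.6e-06) and by 1.28 ± 0.23 in chin skin (0.00021), while the ventral difference was 0.05. At early anagen, ventral skin was below chin skin by 1.49 ± 0.21 (difference of -1.49, adjusted p = 1.5e-06), and dorsal skin was above ventral skin by 1.57 ± 0.21 (4.9e-07). The 4 high groups were also the groups with the highest summed FPKM of 8 dermal papilla genes, 93.5 to 151 against 39.6 to 76.5 in the rest, and their Mki67 means were 11.6 to 14.5 FPKM, above those of all other groups but dorsal catagen (22.9). The part of cell makeup in the Fgf7 level was not tested.

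Fgf10, the other mesenchymal ligand of the epithelial form of Fgfr2, followed Fgf7 at a lower level. In chin skin, Fgf10 was at 1.42 and 1.68 FPKM in competent telogen, 1.67 and 2.23 in early anagen, 0.49 and 0.93 in mid anagen, 0.76 and 0.86 in late anagen, 0.45, 0.81 and 0.82 in catagen and 1.04, 1.11 and 1.40 in refractory telogen. In ventral skin, Fgf10 was at 1.81, 1.95 and 2.01 FPKM in competent telogen, 0.35, 0.60 and 0.69 in early anagen, 0.43 and 0.52 in mid anagen, 0.41, 0.53 and 0.71 in late anagen, 0.55 and 0.63 in catagen and 0.95 and 2.09 in refractory telogen. In dorsal skin, Fgf10 was at 1.01 and 1.05 FPKM in competent telogen, 1.31 and 1.76 in early anagen, 0.79, 0.90 and 1.05 in mid anagen, 0.68, 0.85 and 0.94 in late anagen, 1.47 and 1.55 in catagen and 0.36 and 0.41 in refractory telogen. The same 4 groups had every library above 1.3 FPKM, as had dorsal catagen, and the lowest libraries, those of dorsal refractory telogen among them, were at 0.35 to 0.41. At the depth of these libraries 1 fragment per kilobase was worth 0.0334 to 0.147 FPKM, so the low values rest on few fragments. Group means ran 5.06-fold, from 0.385 in dorsal refractory telogen to 1.95 in chin early anagen, with 14 of 17 neighbours overlapping. Fgf10 fell by 0.79 ± 0.16 from early to mid anagen in chin skin (adjusted p = 0.0011) and by 0.86 ± 0.16 from catagen to refractory telogen in dorsal skin (7.2e-05). From catagen to refractory telogen in ventral skin it rose by 0.63 ± 0.16 (0.0033), but the 2 ventral refractory telogen libraries differed from each other (0.95 and 2.09), and without replicate 1 the rise was 0.30 (adjusted p = 0.186). At early anagen, ventral skin was below chin skin by 0.93 ± 0.15 (difference of -0.93, adjusted p = 1.2e-05) and dorsal skin above ventral skin by 0.71 ± 0.15 (0.00027).

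Fgf22, an epithelial ligand, was the most abundant of the 5 ligands in every skin group. In chin skin, Fgf22 was at 17.9 and 18.7 FPKM in competent telogen, 28.1 and 28.2 in early anagen, 26.4 and 31.8 in mid anagen, 36.0 and 46.1 in late anagen, 36.0, 41.5 and 42.4 in catagen and 20.3, 20.6 and 30.8 in refractory telogen. In ventral skin, Fgf22 was at 25.03, 25.2 and 29.2 FPKM in competent telogen, 21.0, 26.6 and 28.0 in early anagen, 60.0 and 73.6 in mid anagen, 29.4, 30.0 and 30.7 in late anagen, 36.0 and 36.7 in catagen and 54.2 and 61.9 in refractory telogen. In dorsal skin, Fgf22 was at 37.0 and 41.3 FPKM in competent telogen, 14.2 and 15.4 in early anagen, 31.5, 32.4 and 36.8 in mid anagen, 31.4, 33.7 and 36.1 in late anagen, 18.7 and 25.7 in catagen and 37.4 and 44.0 in refractory telogen. Its highest libraries were in ventral mid anagen and ventral refractory telogen, which overlapped, and its lowest were in dorsal early anagen, below all other skin libraries. Group means ran 4.51-fold, from 14.8 to 66.8, and 13 of 17 neighbours overlapped. Between early and mid anagen it rose by 1.38 ± 0.15 in ventral skin (adjusted p = 1.9e-08) and by 1.12 ± 0.15 in dorsal skin (8e-07), against a chin difference of 0.04. Between catagen and refractory telogen it fell by 0.74 ± 0.13 in chin skin (3.7e-05), but rose by 0.66 ± 0.17 in ventral skin (0.0025) and by 0.86 ± 0.17 in dorsal skin (8.9e-05). At refractory telogen, ventral skin was above chin skin by 1.27 ± 0.15 (1.7e-07).

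Fgfr1, the mesenchymal receptor, was higher in most telogen and early anagen groups than from mid anagen to catagen, with dorsal competent telogen an exception. In chin skin, Fgfr1 was at 17.9 and 18.5 FPKM in competent telogen, 18.8 and 21.1 in early anagen, 10.7 and 11.8 in mid anagen, 10.1 and 10.8 in late anagen, 11.4, 12.0 and 12.0 in catagen and 26.4, 32.0 and 32.0 in refractory telogen. In ventral skin, Fgfr1 was at 24.5, 29.4 and 31.0 FPKM in competent telogen, 21.2, 21.6 and 24.6 in early anagen, 13.6 and 15.7 in mid anagen, 9.02, 9.37 and 11.3 in late anagen, 9.83 and 11.3 in catagen and 13.8 and 20.3 in refractory telogen. In dorsal skin, Fgfr1 was at 10.2 and 11.8 FPKM in competent telogen, 31.0 and 36.0 in early anagen, 8.53, 8.90 and 9.55 in mid anagen, 9.18, 10.2 and 10.3 in late anagen, 4.77 and 5.44 in catagen and 15.7 and 16.7 in refractory telogen. In dorsal skin the early anagen libraries were above, and the catagen libraries below, every other library of that domain. Group means ran 6.55-fold, from 5.11 in dorsal catagen to 33.5 in dorsal early anagen, with 13 of 17 neighbours overlapping. Fgfr1 fell from early to mid anagen in all 3 domains, by 1.78 ± 0.12 in dorsal skin (adjusted p = 3.3e-12), by 0.78 ± 0.14 in chin skin (0.0002) and by 0.59 ± 0.12 in ventral skin (0.00033). Between catagen and refractory telogen it rose by 1.5 ± 0.14 in dorsal skin (4.9e-10), by 1.28 ± 0.11 in chin skin (1.6e-10) and by 0.62 ± 0.14 in ventral skin (0.00074). The ventral rise was 0.36 (adjusted p = 0.0547) without ventral refractory telogen replicate 1. From refractory to competent telogen it fell by 0.69 ± 0.12 in chin skin (5.5e-05) and rose by 0.72 ± 0.12 in ventral skin (2.8e-05). At catagen, dorsal skin was below chin skin by 1.07 ± 0.12 (difference of -1.07, adjusted p = 5.1e-08), and at refractory telogen ventral skin was below chin skin by 0.81 ± 0.12 (difference of -0.81, 1.3e-05). As chin refractory telogen held the most skeletal muscle RNA of all skin groups, muscle may have a part in its Fgfr1 level, which was not tested.

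Fgfr2, the receptor of Fgf7, Fgf10 and Fgf22, had the narrowest range of the 7 genes over the groups. In chin skin, Fgfr2 was at 42.1 and 51.4 FPKM in competent telogen, 43.9 and 45.0 in early anagen, 31.9 and 32.4 in mid anagen, 20.03 and 21.7 in late anagen, 24.7, 24.9 and 25.3 in catagen and 29.8, 34.4 and 35.5 in refractory telogen. In ventral skin, Fgfr2 was at 43.4, 47.9 and 53.8 FPKM in competent telogen, 35.0, 37.2 and 40.1 in early anagen, 25.7 and 30.4 in mid anagen, 30.2, 31.4 and 32.2 in late anagen, 24.4 and 29.7 in catagen and 20.3 and 42.6 in refractory telogen. In dorsal skin, Fgfr2 was at 21.4 and 25.2 FPKM in competent telogen, 59.2 and 59.3 in early anagen, 27.8, 30.0 and 31.5 in mid anagen, 29.2, 29.7 and 30.3 in late anagen, 36.2 and 39.6 in catagen and 34.0 and 35.0 in refractory telogen. The 2 dorsal early anagen libraries were above all others, and the chin competent telogen and early anagen and ventral competent telogen libraries came next, together with 1 ventral refractory telogen library whose replicate was at 20.3. Group means ran 2.84-fold, from 20.9 in chin late anagen to 59.2 in dorsal early anagen, and 15 of 17 neighbours overlapped. The values are per gene, so the epithelial and mesenchymal splice forms are summed. Between early and mid anagen Fgfr2 fell by 0.97 ± 0.16 in dorsal skin (adjusted p = 1.6e-05), and the chin difference of -0.46 did not pass (0.068). At early anagen it was higher in dorsal than in ventral skin by 0.65 ± 0.16 (0.0015). The ventral rise of 0.69 ± 0.16 from refractory to competent telogen (0.00075) fell to 0.18 (adjusted p = 0.302) without ventral refractory telogen replicate 2, and to 0.28 (0.0943) under median-of-ratios scaling and 0.34 (0.0528) under quantile normalization.

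In F-tests over the 6 stages within a domain, all 7 genes varied in each domain, against 66.2% of the 21257 genes tested in chin skin, 70.2% in ventral skin and 68.5% in dorsal skin. The members' share is to be read against that high background. The largest of the 21 adjusted p was 0.00033 (Fgf18, dorsal). The course over the stages differed among the domains for all 7 genes (interaction test), against 73.3% of all genes. Without dorsal competent telogen and chin late anagen these counts stayed at 7, with interaction adjusted p up to 0.041 (Fgfr2), against 61.2%, 69.5% and 66.2% of all genes over the chin, ventral and dorsal stages and 68.5% for the interaction. Without the 3 competent telogen groups and ventral early anagen, 5 genes varied over the ventral stages (Fgf7 and Fgfr2 were at 0.7), against 47.5% of all genes, and the interaction count stayed at 7, against 64.4%.

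Among the domains at a stage, the count of members that differed ran from 7 to 2. At competent telogen it was 7 of 7, against 54% of all genes, at early anagen 6 (all but Fgf5, adjusted p = 0.082; background 51.6%) and at catagen 7 (42.9%). At mid anagen it was 4, namely Fgf5, Fgf18, Fgf22 and Fgfr1 (38.1%), at refractory telogen 4, namely Fgf10, Fgf18, Fgf22 and Fgfr1 (42.2%), and at late anagen 2, namely Fgf5 and Fgfr2 (20.8%). At competent telogen Fgf10 was lost without dorsal replicate 1 (0.059) or 2 (0.0766) and under median-of-ratios scaling (0.264) or quantile normalization (0.315), and at mid anagen Fgf18 without ventral replicate 1 (0.096). At late anagen Fgf5 (0.201 and 0.059) and Fgfr2 (0.215 and 0.107) were lost without chin replicate 1 or 2. At catagen Fgf18 was lost without chin replicate 1 (0.0737) or 3 (0.0512) or dorsal replicate 2 (0.381), and Fgfr2 without dorsal replicate 2 (0.127). At refractory telogen Fgfr2 (0.55) passed at 4.96e-05 without ventral replicate 1, and Fgf5 (0.32) at 0.0365 without chin replicate 2. Fgf7 (0.068) passed at 0.0123 to 0.0436 without either ventral library, chin replicate 2, dorsal replicate 1 or either chin early anagen library, and at 0.0438 rescaled to TPM. Without the groups that stood apart, 2 domains were left at a stage, and the counts fell together with the share of all genes. Without dorsal competent telogen and chin late anagen, 3 members differed at competent telogen, Fgf18, Fgf22 and Fgfr1 (chin against ventral skin only, 22% of all genes). At late anagen, then ventral against dorsal skin only, 0 members differed by limma. There 2.69% of all genes passed the adjusted threshold and 2955 of 21170 passed an unadjusted p under 0.05. Without the competent telogen groups and ventral early anagen, 2 members differed at early anagen, Fgf22 and Fgfr1 (chin against dorsal skin only, 25.7% of all genes).

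Only some of the pairs of domains at single stages are described here, so these counts are no account of all pairs. Dorsal and chin skin differed in 7 members at catagen (4 higher and 3 lower in dorsal skin, against 41.3% of all genes). Dorsal and ventral skin differed in 6 at early anagen (4 higher, 2 lower; 41.7%). Ventral and chin skin differed in 3 members at competent telogen (Fgf22 and Fgfr1 higher and Fgf18 lower in ventral skin; 23%), in 2 at early anagen (Fgf7 and Fgf10 lower; 32.9%) and in 3 at refractory telogen (Fgf22 higher, Fgf18 and Fgfr1 lower; 30.7%). At catagen Fgf18 (0.74 ± 0.23 higher in dorsal skin) and Fgfr2 (0.58 ± 0.16) lost their calls without dorsal replicate 2, at p of 0.206 and 0.0526. At competent telogen Fgf22 (0.51 ± 0.15, adjusted p = 0.014) lost its call without either chin library or ventral replicate 1, at p up to 0.101, and under median-of-ratios scaling (0.0867) and quantile normalization (0.0574).

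Of the 3 steps of the cycle described here, early to mid anagen, catagen to refractory telogen and refractory to competent telogen, all 7 members were called at early to mid anagen in dorsal skin (3 rose and 4 fell, against 39.2% of all genes called) and at catagen to refractory telogen in chin skin (5 rose, 2 fell; 48%). From early to mid anagen, 4 members were called in chin skin (1 rose, 3 fell; 18.1%) and 5 in ventral skin (2 rose, 3 fell; 42.4%). From catagen to refractory telogen, 5 were called in ventral skin (4 rose, 1 fell; 33.6%) and 5 in dorsal skin (2 rose, 3 fell; 43.7%). From refractory to competent telogen, 4 were called in chin skin (2 rose, 2 fell; 36.3%), 5 in ventral skin (3 rose, 2 fell; 42.6%) and 5 in dorsal skin (2 rose, 3 fell; 22.2%). Fgf5 rose from early to mid anagen and fell from catagen to refractory telogen in all 3 domains, and Fgfr1 moved the opposite way at both steps in all 3. The remaining dorsal calls from refractory to competent telogen were a rise of Fgf5 (1.64 ± 0.25, adjusted p = 1.2e-05) and of Fgf10 (0.55 ± 0.16, 0.013) and falls of Fgfr1 (0.52 ± 0.14, 0.0055) and Fgfr2 (0.55 ± 0.17, 0.021). They rest on the dorsal competent telogen libraries that stood apart.

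**Figure D3:**
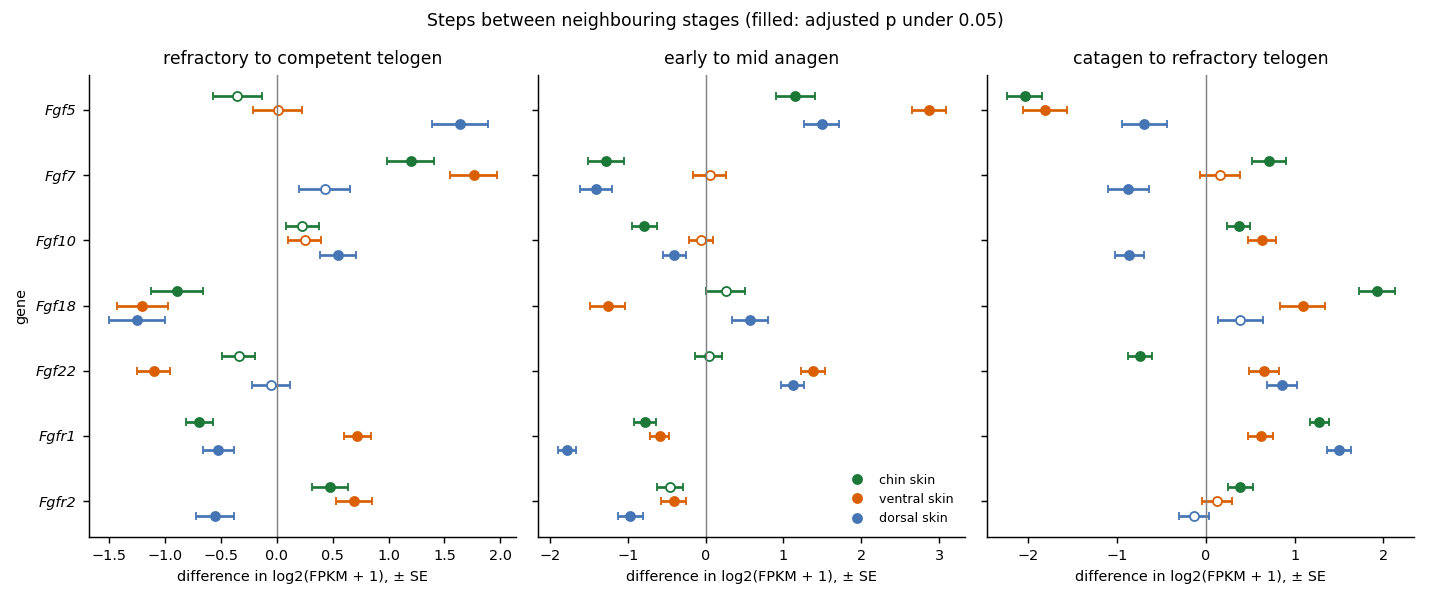
Log2 difference (± SE) of each gene at 3 steps of the cycle, as the next stage in cycle order minus the stage before it, with 1 panel per step and 1 colour per domain. Filled points have an adjusted p under the threshold of 0.05 and open points are the rest. The step from refractory to competent telogen closes the cycle, from the second telogen back to the first. Fgf5 lies above 0 at early to mid anagen and below 0 at catagen to refractory telogen in all 3 domains, and Fgfr1 lies on the opposite side in both panels.

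Several of these step calls depended on 1 library. From refractory to competent telogen, Fgfr2 in chin skin (0.48 ± 0.16) was lost without chin competent telogen replicate 1 (0.34, adjusted p = 0.246) or chin refractory telogen replicate 2 (0.40, 0.0748). In dorsal skin Fgf10 was lost without any 1 of the 4 libraries compared (p up to 0.0814), Fgfr1 without replicate 1 of either stage (up to 0.0893) and Fgfr2 without competent telogen replicate 1 or either refractory telogen library (up to 0.194). From early to mid anagen, Fgfr2 in ventral skin (-0.41 ± 0.16) was lost without early anagen replicate 1 or 2 or mid anagen replicate 1 (up to 0.295). In dorsal skin Fgf10 (-0.40 ± 0.15) was lost without early anagen replicate 1 or mid anagen replicate 1 or 3 (up to 0.299), and Fgf18 (0.57 ± 0.23, adjusted p = 0.0491) in 27 of the 43 fits that each left out 1 library. From catagen to refractory telogen, Fgf10 in chin skin (0.37 ± 0.13) was lost without replicate 3 of either stage (up to 0.145) and Fgfr2 (0.39 ± 0.14) without catagen replicate 2 or 3 or refractory telogen replicate 1 or 3 (up to 0.0844). In dorsal skin Fgf7 (-0.87 ± 0.23) was lost without refractory telogen replicate 2 (-0.58, 0.0921).

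The median of all genes itself moved by over 0.1 at some steps, by 0.22 from refractory to competent telogen in ventral skin, by -0.16 and -0.18 from early to mid anagen in chin and dorsal skin, and by -0.17 for ventral against chin skin at refractory telogen. No called step or domain difference of a member given here changed sign under another scaling, but some calls were lost. From early to mid anagen, Fgf10 in dorsal skin was at -0.23 (adjusted p = 0.214) under median-of-ratios scaling and at -0.13 (0.55) after quantile normalization, and Fgfr2 in ventral skin was at -0.26 (0.108) under median-of-ratios scaling and at -0.45 (0.0558) rescaled to TPM. From catagen to refractory telogen in chin skin, Fgf10 was at 0.19 (0.256) after quantile normalization, and Fgfr2 at 0.24 (0.0921) under median-of-ratios scaling and at 0.39 (0.055) rescaled to TPM.

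Over the 18 group means of log2(FPKM + 1), Fgf7 and Fgf10 followed each other (Pearson r 0.86, Spearman rho 0.89), and Fgf7 followed Fgfr2 (0.81 and 0.63). Fgf5 ran against Fgfr2 (-0.80 and -0.82) and Fgf22 against Fgfr2 (-0.74 and -0.81). Beside the marker lists, Fgf7 had an r of 0.91 (rho 0.69) and Fgf10 of 0.81 (0.73) with the dermal papilla list, which holds neither gene. Fgf5 had an r of 0.84 (0.80) with the hair matrix and shaft list and of -0.91 (-0.81) with the hair follicle stem cell list, and Fgfr1 had the opposite signs, -0.84 (-0.72) and 0.87 (0.78). Other lists ran the same way as the stem cell list. For Fgf5 the r was -0.88 (-0.85) with epidermal keratinocyte genes and -0.78 (-0.70) with cartilage genes. For Fgfr1 it was 0.83 (0.80) with cartilage, 0.74 (0.67) with dermal fibroblast and 0.67 (0.68) with epidermal keratinocyte genes. These are descriptions over groups that share domains and stages. Without dorsal competent telogen and chin late anagen, over 16 groups, the r of Fgf7 was 0.86 with Fgf10, 0.89 with Fgfr2 and 0.93 with the dermal papilla list, and without the competent telogen groups and ventral early anagen, over 14 groups, it was 0.82, 0.85 and 0.90. In the same 2 sets of groups, Fgfr2 had an r of -0.74 and -0.76 with Fgf5 and of -0.76 and -0.71 with Fgf22, and Fgf10 of 0.85 and 0.77 with the dermal papilla list. Fgf5 had an r of 0.84 and 0.77 with the hair matrix and shaft list and of -0.90 and -0.87 with the stem cell list, and Fgfr1 of -0.83 and -0.84 and of 0.86 and 0.87.

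**Figure D4:**
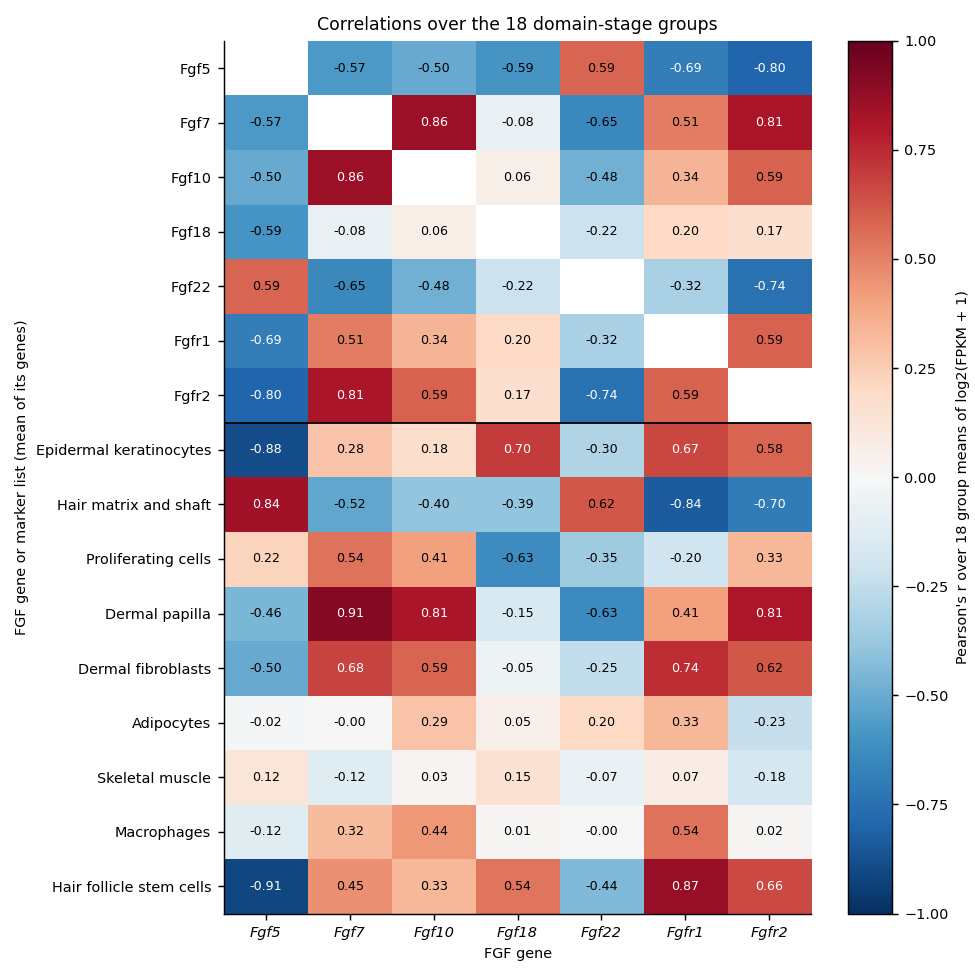
Pearson r over the 18 group means of log2(FPKM + 1) between each of the 7 genes (columns) and the other members and 9 marker lists (rows), on a colour scale from -1 to 1 with the value in each cell. The cartilage list is not drawn. Fgf7 and Fgf10 are positive with each other, with Fgfr2 and with the dermal papilla list, and Fgf5 and Fgfr1 have opposite signs with the hair matrix and shaft and the stem cell lists.

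Of 14558 genes with a mean of at least 1 FPKM, the 3 whose group means had the highest Pearson r with each member were as follows. For Fgf7 they were Col11a1 (0.96), a fibrillar collagen, Chd3 (0.93) and Ppfibp1 (0.93). For Fgf10 they were Etv5 (0.87), an ETS factor induced by FGF receptors, Cnih1 (0.87) and Lgals12 (0.87). For Fgf5 they were S100a8 (0.93), a calcium-binding protein of myeloid cells and stressed keratinocytes, Tmem229b (0.93) and Duoxa1 (0.92). For Fgf18 they were Txnip (0.89), Adrbk1 (0.87) and H2-Q5 (0.87), and for Fgf22 they were 9130409J20Rik (0.88), Rnf222 (0.88) and Sprr1a (0.88), a cornified envelope gene. For Fgfr1 they were Limk1 (0.97), Sh2b3 (0.96) and Sec22c (0.94), and for Fgfr2 they were Map4k5 (0.94), Adh6a (0.93) and Zmynd11 (0.93). By Spearman rho the top 3 shared Lgals12 for Fgf10, Rnf222 for Fgf22, Limk1 and Sh2b3 for Fgfr1 and Map4k5 for Fgfr2, and shared 0 for Fgf5, Fgf7 and Fgf18.

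Counts of other genes of the pathway are to be read against the shares of all genes that varied over the stages, 66.2% in chin, 70.2% in ventral and 68.5% in dorsal skin. Of 17 other FGF ligands, 7 passed the filter on low values. The widest ranges of group means were those of Fgf13 (0.78 FPKM in dorsal late anagen to 5.48 in chin refractory telogen), an intracellular family member that is not secreted, Fgf3 (0 to 2.05, highest in dorsal refractory telogen) and Fgf21 (0.195 in dorsal catagen to 2.38 in chin late anagen), a metabolic hormone. Of the 7, 4 varied over the stages in ventral skin (Fgf3, Fgf11, Fgf13 and Fgf21), and these 4 were among the 5 called in chin skin and, with Fgf2, the 5 called in dorsal skin. Of the other receptors and co-receptors, 4 of 5 were tested, and these were Fgfr3 (16.8 to 27.9), Fgfrl1 (2.05 to 7.74), a receptor without a kinase domain, Fgfr4 (0.157 to 1.34) and Klb (0.01 to 0.985), a co-receptor of hormone-like FGFs. All 4 varied over the stages in chin and ventral skin and 3 in dorsal skin (not Fgfr3, adjusted p = 0.0612). Both carrier proteins that release FGFs from the matrix varied in every domain, Fgfbp1 from 43.2 in chin late anagen to 219 in ventral competent telogen and Fgfbp3 from 1.74 in dorsal refractory telogen to 11.5 in ventral mid anagen.

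Of 13 response and feedback genes tested, 12 varied over the stages in chin skin, 11 in ventral skin and 11 in dorsal skin, against those same shares, and 12 had a different course among the domains, against 73.3% of all genes. The widest ranges were those of Etv4 (2.07 FPKM in dorsal catagen to 19.95 in chin early anagen), Spry2 (36.1 in chin catagen to 137 in ventral competent telogen) and Etv1 (0.73 in ventral catagen to 4.82 in ventral early anagen). Etv5 had an r of 0.87 with Fgf10 and of 0.85 with Fgf7 over the group means, the highest of the 13 genes for both. The lowest were those of Flrt3, at -0.37 with Fgf10 and -0.33 with Fgf7, and Spry1 was at 0.12 and 0.31. The domains differed in 11 of the 13 at competent telogen (54% of all genes), in 10 at early anagen (51.6%), in 5 at mid anagen (38.1%; Spry2, Dusp6, Etv1 and Etv5 among them) and in Etv4 alone at late anagen (20.8%; adjusted p = 0.032), while the share of all genes fell in the same order. At catagen and refractory telogen the number was 6 each (42.9% and 42.2%). Esrp1 and Esrp2, the splicing regulators that give the epithelial form of Fgfr2, varied over the stages in every domain, at 28.7 to 60.1 and 16.8 to 34.8.

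In the ear, Fgf7, Fgf18 and Fgfr1 were highest in the cartilage/muscle complex, where Fgf22 was lowest, and Fgfr2 was highest in ear skin. Fgf7 was at 30.3, 33.2 and 31.7 FPKM in the 3 cartilage/muscle libraries, at 5.73 and 4.52 in ear skin and at 2.51 and 2.46 in dorsal competent telogen skin. Fgfr1 was at 112, 133 and 113, then at 39.0 and 32.8, then at 10.2 and 11.8 in the same order. Fgf18 was at 15.1, 13.0 and 14.4, at 2.94 and 3.67 and at 0.88 and 0.61. By group mean, these 3 genes fell in the order cartilage/muscle complex, ear skin, dorsal skin. Fgf22 had the reverse order, at 1.09, 0 and 1.90 in cartilage/muscle complex, 14.6 and 13.9 in ear skin and 37.0 and 41.3 in dorsal skin, with 1 library listed at 0. Fgfr2 was highest in ear skin (61.2 and 56.2), with 39.5, 44.1 and 42.3 in cartilage/muscle complex and 21.4 and 25.2 in dorsal skin. Fgf5 was at 0.40, 0.44 and 0.68 in cartilage/muscle complex and at 0.03 and 0.14 in ear skin, against 10.4 and 8.85 in dorsal skin. Fgf10 was low in all 3, at 0.36, 0.48 and 0.42, at 0.53 and 0.52 and at 1.05 and 1.01.

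Against dorsal skin, all 7 genes differed in the cartilage/muscle complex, 4 higher and 3 lower, where 42.8% of the 19299 genes tested were higher and 28.3% lower. Fgfr1 was higher by 3.32 ± 0.12 (adjusted p = 1.8e-06), Fgf7 by 3.23 ± 0.10 (9.9e-07) and Fgf18 by 3.12 ± 0.12 (2.7e-06), and Fgfr2 by 0.83 ± 0.09 (0.0003). Fgf22 had a difference of -4.46 ± 0.42 (0.00014), Fgf5 of -2.82 ± 0.13 (5e-06) and Fgf10 of -0.52 ± 0.09 (0.0021). Ear skin also differed from dorsal skin in all 7, again 4 higher and 3 lower (44.7% of all genes higher, 14.6% lower). Fgfr1 was higher by 1.62 ± 0.13 (0.00012), Fgfr2 by 1.30 ± 0.10 (0.00011), Fgf18 by 1.30 ± 0.13 (0.00035) and Fgf7 by 0.81 ± 0.11 (0.0011), and Fgf5 had a difference of -3.29 ± 0.14 (9.8e-06). The ear skin differences of Fgf22 (-1.39 ± 0.46, 0.04) and Fgf10 (-0.41 ± 0.10, 0.011) were less firm. Fgf22 was lost without either dorsal library, either ear skin library or cartilage/muscle replicate 1 (p up to 0.142) and with a pseudocount of 0.1 (0.393), and Fgf10 without either ear skin library or dorsal replicate 1 (up to 0.06).

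Between the ear tissues, 6 of 7 genes differed, 4 higher and 2 lower in the cartilage/muscle complex (28% of all genes higher, 38.5% lower). Fgf7 was higher by 2.42 ± 0.10 (adjusted p = 3.6e-06), Fgf18 by 1.82 ± 0.12 (3.2e-05), Fgfr1 by 1.70 ± 0.12 (3.7e-05) and Fgf5 by 0.47 ± 0.13 (0.017). Fgf5 was at 0.40 (adjusted p = 0.0987) without the first ear skin library. Fgf22 had a difference of -3.07 ± 0.42 (0.00088) and Fgfr2 of -0.48 ± 0.09 (0.0042), the latter lost under quantile normalization (-0.19, 0.0861), while Fgf10 did not pass (-0.10 ± 0.09, 0.33). The median of all genes was higher by 0.33 in ear skin and by 0.24 in cartilage/muscle complex than in dorsal skin, and lower by 0.11 in cartilage/muscle complex than in ear skin (a shift of -0.11).

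The dorsal group of the ear table was dorsal competent telogen, whose libraries stood apart from their label. With dorsal refractory telogen in its place, ear skin differed by 1.24 for Fgf7 (adjusted p = 0.0026), 1.10 for Fgfr1 (0.00048), 0.75 for Fgfr2 (0.0004) and -1.65 for Fgf5 (0.00025). Fgf18 no longer passed between ear and dorsal skin (0.05, adjusted p = 0.76), and Fgf10 changed its sign without passing (0.14, 0.27). In the cartilage/muscle complex Fgf7 (3.66), Fgfr1 (2.80) and Fgf18 (1.87) stayed higher and Fgf5 (-1.18) and Fgf22 (-4.51) lower, at adjusted p between 2.5e-06 and 0.00041, and Fgf10 (0.04, 0.74) did not pass. Fgf22 in ear skin and Fgfr2 in cartilage/muscle complex also kept their direction and call.

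**Figure D5:**
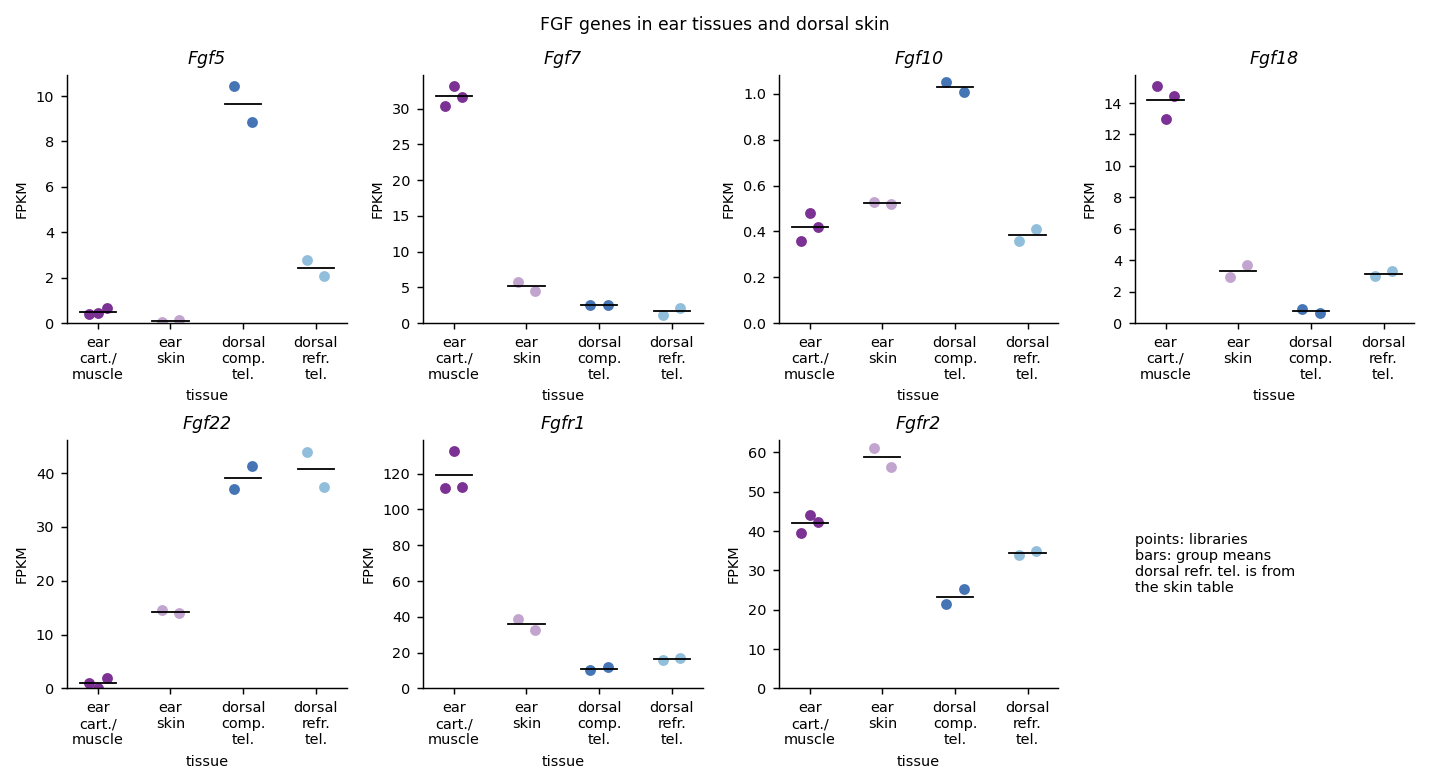
FPKM of the 7 genes in each library of ear cartilage/muscle complex, ear skin, dorsal competent telogen and, from the skin table, dorsal refractory telogen, with 1 panel per gene on a linear axis from 0, a point per library and a bar at the group mean. Fgf7, Fgf18 and Fgfr1 fall from cartilage/muscle complex to ear skin, and Fgf22 is lowest in cartilage/muscle complex.

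The tissue labels of the ear held in the marker genes. In the cartilage/muscle complex 9 cartilage genes summed to 1469 to 1856 FPKM against 2.41 to 2.68 in ear skin, and skeletal muscle genes to 18556 to 21399 against 1076 to 1157. Epidermal keratinocyte genes summed to 3.67 to 3.68 in cartilage/muscle complex against 8573 to 9146 in ear skin. Esrp1 was at 0 in all 3 cartilage/muscle libraries, and so was Fgfbp1, against means of 48.4 and 135 in ear skin. The 8 dermal papilla genes summed to 2167 to 2208 in the cartilage/muscle complex, against 73.6 to 75.5 in ear skin, but Wif1 alone made up most of that sum, with a mean of 2084 against 19.9, and Corin was at 76.0 against 0.165. Over the 8 genes the mean of log2(FPKM + 1) was 3.80 against 2.50. Hair matrix and shaft genes summed to 58.1 to 60.4 in ear skin against 6300 to 6361 in dorsal competent telogen, and the part of this in the Fgf5 and Fgf22 differences was not tested. Of the other genes of the pathway, Fgfr3 had means of 126, 26.8 and 17.2 FPKM and Fgfrl1 of 47.6, 3.83 and 4.37 in cartilage/muscle complex, ear skin and dorsal skin. All 4 other receptors and co-receptors tested were higher in cartilage/muscle complex than in dorsal skin, where 42.8% of all genes were higher. Fgfrl1 was higher by 3.18 (adjusted p = 1.2e-06) and Fgfr3 by 2.81 (2.6e-06). In ear skin, Fgfr3 (0.61, 0.0054) and Fgfr4 (0.83, 0.0041) were higher than in dorsal skin, where 44.7% of all genes were higher. For these other pathway genes the dorsal group was dorsal competent telogen only. Of 12 response and feedback genes tested, 10 differed between cartilage/muscle complex and dorsal skin, where 42.8% of all genes were higher and 28.3% lower, with Etv5 and Etv1 among the 7 that were higher and Dusp6, Flrt2 and Flrt3 the 3 that were lower. Between ear and dorsal skin 8 differed, where 44.7% of all genes were higher and 14.6% lower, with Spry1, Spry2, Spred3 and Etv1 higher and Dusp6, Etv4, Flrt2 and Flrt3 lower in ear skin.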

How the data were processed

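RNA-seq of whole skin and ear tissue was analysed from 2 tables of FPKM deposited by the authors, who prepared SMART-seq2 libraries without strand, quantified them with RSEM 1.2.25 on mm10 with a GENCODE annotation and applied a batch-effect correction whose batches are not given in the sources used here. The FPKM were used as deposited. Depth, estimated from the steps between low FPKM of 9728 single-transcript genes, was 6.8e+06 to 3e+07 fragments in 48 distinct libraries. The authors ran edgeR on FPKM; as FPKM are no counts, limma 3.58.1 (R 4.3.3) with a variance trend was fitted on log2(FPKM + 1), which understates the change of low genes, to genes of at least 0.5 FPKM in at least 2 libraries. The 43 skin libraries were fitted as 18 groups, and the 7 libraries of the ear table on their own. Tests were two-sided, with Benjamini-Hochberg adjustment over all genes within each comparison and a threshold of 0.05. The procedure was tested on simulated data. All 7 members were named, with the 3 genes of the most similar group means for each and, from each list of pathway genes, the 3 tested genes with the widest range of group means and every gene behind a count of 5 or fewer, apart from some genes of these lists that are not reported here. The members and lists were chosen with earlier results of these data known. Alternatives were another pseudocount (0.1), other filters, 3 other scalings, no variance trend, fits to part of the libraries, the replicate number as a block, each library left out in turn and, chosen after seeing the data, leaving out groups at odds with their labels and another dorsal group for the ear. Figures were drawn with matplotlib 3.10.9.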

Additional observations from a re-analysis of the deposited data

Results flagged for a closer look

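The course over the 6 stages differed among chin, ventral and dorsal skin for all 7 genes, by the domain-by-stage interaction test (limma, adjusted over all genes tested). The adjusted p was 1.1e-08 for Fgf5, 2.6e-08 for Fgf7, 1.2e-06 for Fgf10, 4.2e-06 for Fgf18, 2e-09 for Fgf22, 9e-10 for Fgfr1 and 5e-06 for Fgfr2. Of all genes tested, 73.3% passed the same test. Without dorsal competent telogen and chin late anagen, the groups as close as replicates, it was 0.00022 for Fgf5, 1.2e-05 for Fgf7, 7.2e-06 for Fgf10, 3.1e-05 for Fgf18, 7.3e-08 for Fgf22, 1e-08 for Fgfr1 and 0.041 for Fgfr2. Without the competent telogen groups and ventral early anagen, the highest were 0.015 for Fgf7 and 0.037 for Fgfr2. Gaps between libraries of 1 group were not tested, since no group held 4 or more.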

How the results depend on the processing

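Groups of 2 or 3 libraries and few fragments at low FPKM limit the precision. Of 1583 values for single genes under other settings, 1515 kept their direction and call, 52 lost a call, 7 gained one, 3 turned direction and 6 lists of similar genes moved. Of 6081 with 1 library left out, 5973 kept theirs, 89 lost a call and 19 gained one. The difference of Fgf10 turned to 0.139 (ear skin) and 0.0354 (cartilage/muscle complex) with dorsal refractory telogen as the dorsal group, and to 0.0654 between the ear tissues after quantile normalization, each without passing. The count of members that differed among domains at late anagen, 2, became 1 with a pseudocount of 0.1, 4 after quantile normalization and 0 without dorsal competent telogen and chin late anagen, and ran from 0 to 3 with 1 library left out. Without those groups the count at competent telogen became 3, and without the competent telogen groups and ventral early anagen that at early anagen became 2. With 1 library left out, counts ran from 6 to 7 at competent telogen and early anagen, 3 to 5 at mid anagen, 5 to 7 at catagen, 4 to 6 at refractory telogen, 5 to 7 between ear and dorsal skin and 5 to 6 between ear tissues, and stayed at 7 over the stages of each domain, for the interaction and between cartilage/muscle complex and dorsal skin. Among the other calls lost in single settings were Fgf5 at mid anagen (0.0702) and Fgf10 at refractory telogen (0.0798) with only that stage in the fit, Fgf18 at refractory telogen (0.0519 with a pseudocount of 0.1, 0.109 after quantile normalization) and Fgfr2 at catagen rescaled to TPM (0.0537). Same-numbered replicates did not deviate together: their correlations ran from -0.174 to 0.162, with a median of 0.003, and 9 of 327 were over 0.1. With the replicate number as a block, the counts over the stages of each domain and for the interaction were 7, and 3 calls were lost, from early to mid anagen in dorsal skin for Fgf10 (-0.37, 0.0524) and Fgf18 (0.53, 0.0793) and between cartilage/muscle complex and dorsal skin for Fgf10 (-0.52, 0.0501). The causes were not tested.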
